A study of Mus musculus with 6 samples.

Results

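The pluripotency factors Pou5f1, Nanog, Sox2, Zfp42, Esrrb, Klf4, Utf1, Tdgf1, Lin28a and Dppa4 were read as the stem cell programme that may remain in sorted embryoid body cells. These 10 genes were chosen by name, with earlier results of these data known. Each was found as the 1 array feature whose annotation lists that symbol alone, among 30702 genes so measured. The cells came from a mouse embryonic stem cell line named iRunx in the labels, grown into embryoid bodies, which are aggregates that form the germ layers. At day 4 the bodies were dissociated and Flk1-positive, PDGFRα-negative cells were sorted. HOXB4 cells carried the homeodomain gene HOXB4 on a retrovirus with the red reporter tdTomato, and control cells were without its expression. The sources used here do not say whether controls had an empty vector, nor whether a Runx transgene was induced in either group. There were 3 control and 3 HOXB4 arrays from independent experiments, and so few arrays limit the precision of all values.

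Values are log2 summaries per feature, so a difference of 1 is a 2-fold change, and a value is compared between arrays, not between genes. The median gene lay at 5.10 to 5.22 in the 6 arrays. The 23 background features, probes without a genomic target, had medians of 3.06 to 3.15, and the highest of them lay at 5.80 to 6.17. Kdr, which encodes the sorted marker Flk1, was at 13.7 to 14.3 in every array. No list marker of neural ectoderm other than Nes, at 6.55 to 7.52, was above the highest background feature in any array. Of all 30702 genes, 16864 were under it in every array.

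Pluripotency rests on a small circuit of transcription factors. Oct4 (the product of Pou5f1), Sox2 and Nanog bind their own and each other's regulatory DNA, and Esrrb, Klf4 and Zfp42 belong to the naive state of early embryonic stem cells. As epiblast becomes mesoderm, the naive factors are silenced first, while Pou5f1, Nanog and the Nodal co-receptor Tdgf1 stay on in the primitive streak and early mesoderm. Utf1 and Dppa4 act at chromatin, and Lin28a blocks maturation of let-7 microRNAs.

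RefSeq start-site windows on GRCm38.p6, from 250 bases before to 50 after a start, were held for 9 of the 10 genes, with 12 windows in all. Of these, 4 are shown, because Nanog, Pou5f1 and Tdgf1 shared their highest array and their 2 lowest, while Zfp42 had others at both ends. The 250 bases before the start are given 5′ to 3′ on the gene's own strand, and capitals mark motif matches.
Nanog, chr6:122707239-122707488, plus strand: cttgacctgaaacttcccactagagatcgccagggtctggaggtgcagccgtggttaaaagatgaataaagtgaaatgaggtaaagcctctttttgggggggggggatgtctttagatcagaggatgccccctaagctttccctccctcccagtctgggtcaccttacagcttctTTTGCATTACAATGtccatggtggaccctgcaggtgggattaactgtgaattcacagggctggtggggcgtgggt
Pou5f1, chr17:35505782-35506031, plus strand: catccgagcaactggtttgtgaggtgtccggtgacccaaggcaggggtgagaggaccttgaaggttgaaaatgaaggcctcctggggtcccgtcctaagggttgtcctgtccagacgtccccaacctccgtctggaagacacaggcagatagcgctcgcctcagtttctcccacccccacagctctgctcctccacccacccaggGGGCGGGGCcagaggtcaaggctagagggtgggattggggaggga
Tdgf1, chr9:110946159-110946408, minus strand: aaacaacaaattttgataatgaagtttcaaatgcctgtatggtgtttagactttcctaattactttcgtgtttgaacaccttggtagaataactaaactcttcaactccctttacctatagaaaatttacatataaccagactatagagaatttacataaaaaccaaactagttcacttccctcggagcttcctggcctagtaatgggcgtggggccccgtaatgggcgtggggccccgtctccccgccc
Zfp42, chr8:43307010-43307259, minus strand: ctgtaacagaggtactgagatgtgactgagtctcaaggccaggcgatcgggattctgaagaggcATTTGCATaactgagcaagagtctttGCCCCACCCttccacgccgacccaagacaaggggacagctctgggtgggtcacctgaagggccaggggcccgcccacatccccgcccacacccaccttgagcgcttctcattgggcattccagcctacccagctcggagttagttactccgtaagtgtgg
Motifs were searched on both strands over the whole windows. The octamer ATGCAAAT of POU factors was found for Zfp42 alone of the 9 genes, at -186 to -179 from the start, and in 1.74% of all 32851 windows. The looser form ATGCNNAT overlaps it and was found in the same Zfp42 window, against 8.93% of all windows. The Sox core CATTGT was in 5 of the 12 windows and in 12.6% of all windows. The 5 belong to 4 of the 9 genes (Nanog, Lin28a, Esrrb and a second Pou5f1 start), and the 2 overlapping Nanog windows hold the same site. The box GGGNGGGGC of Klf and Sp factors was in 6 of the 12 windows and in 17.0% of all windows. The 6 belong to 6 of the 9 genes (Pou5f1, Sox2, Klf4, Utf1, Zfp42 and Esrrb). In the Nanog window the Sox core lies in the known Sox-octamer composite, read here as TTTGCATTACAATG, at -75 to -62. That composite was added after the windows were seen, and the 2 overlapping Nanog windows were its sole matches among all windows. A match describes the letters and not a bound site, and the Tdgf1 stretch held none of these patterns.

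Of the 10 factors, 7 lay above the highest background feature in all 6 arrays, as did 11730 of all 30702 genes. Sox2 and Esrrb did so in no array, like 16864 of all genes, and Utf1 in HOXB4 3 alone. Background depends on base composition, so this is a coarse guide to detection. Between groups, 9 of the 10 had a higher mean in HOXB4 cells, with a median difference of 0.50, where 40.0% of all genes were higher and the median was -0.04. The 10 were chosen with earlier results of these data known, so this contrast with all genes is not independent. The 9 include Sox2 at 0.02, and the signs of Nanog, Sox2 and Tdgf1 turned in fits with 1 array left out. Of the 10, 0 passed limma's moderated test (Benjamini-Hochberg adjusted p below 0.05), which called 0.0% of all genes. At an unadjusted p below 0.05, limma counted 2 of the 10, both higher in HOXB4 cells. Of all genes, 8.19% were counted at that level in either direction, made up of 2.23% higher and 5.95% lower. The same 2, Zfp42 and Utf1, had no overlap between groups, with HOXB4 higher, against 3.24% of all genes. That count was 4 without control 2 or without HOXB4 2, where the shares of all genes were 7.11% and 10.5%. In RNA of sorted populations, more cells with a transcript and more transcript per cell cannot be told apart.

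**Figure D1:**
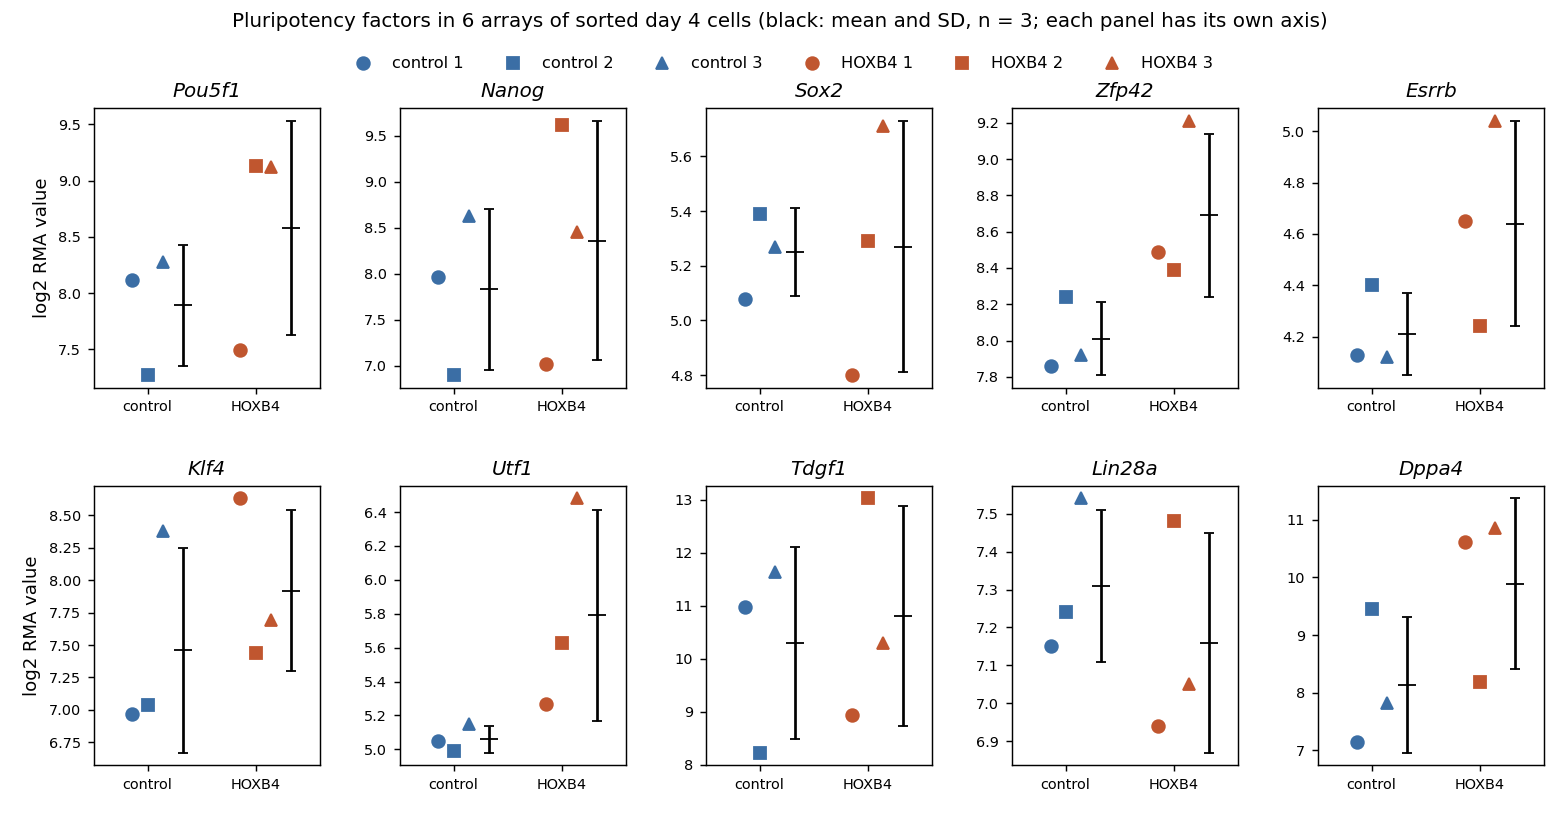
The log2 value of each of the 10 genes in each array is plotted, controls in blue and HOXB4 in orange, with symbols for replicates 1 to 3 and a black mean and SD (n = 3) beside each group. The groups do not overlap for Zfp42 and Utf1, and Tdgf1 and Dppa4 have the widest axes, with ranges of 4.79 and 3.71 over the 6 arrays.

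Pou5f1, which encodes the core factor Oct4, gave 8.12, 7.27 and 8.28 for controls 1 to 3, and 7.49, 9.13 and 9.12 for HOXB4 1 to 3. Values below keep this replicate order. HOXB4 2 and 3 lay above every control, while HOXB4 1 lay below controls 1 and 3, so the groups overlapped. The difference was 0.69 (SE 0.49; 95% interval -0.48 to 1.86), or 1.61-fold, with an adjusted p of 0.700 by limma. It ran from 0.38 without control 2 to 1.24 without HOXB4 1.

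Nanog, the homeodomain factor that holds cells in self-renewal, was at 7.96, 6.90 and 8.63 in controls and at 7.02, 9.61 and 8.45 in HOXB4 cells. Its array order followed that of Pou5f1 at both ends, with HOXB4 2 highest and HOXB4 1 and control 2 lowest. The spread within the HOXB4 group, 2.60, was several times the difference of 0.53 (SE 0.70; limma adjusted p = 0.826). That difference turned to -0.10 without HOXB4 2.

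Sox2, the partner of Oct4 and also a neural factor, was at 5.08, 5.39 and 5.27 in controls and at 4.80, 5.29 and 5.71 in HOXB4 cells. These values lay around the median gene and under the highest background feature, and the 3 controls fell inside the HOXB4 range. The difference was 0.02 (SE 0.23), with an interval of -0.52 to 0.56. Its sign turned without control 1 (-0.06) and without HOXB4 3 (-0.20). The neighbouring feature shared by the long RNA Sox2ot and Mir1897 stood at 4.31 to 4.46.

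Among the naive factors, Zfp42, the zinc finger gene also called Rex1, was at 7.86, 8.24 and 7.92 in controls and at 8.49, 8.39 and 9.21 in HOXB4 cells. The lowest HOXB4 array stood 0.15 above the highest control, and HOXB4 3 was the highest of the 6. The means were 8.01 ± 0.20 and 8.69 ± 0.45 (SD, n = 3 each), a difference of 0.69 (SE 0.23; 95% interval 0.14 to 1.24). The unadjusted p of limma was 0.0212 and the adjusted p 0.605. Without HOXB4 3 the difference was 0.43.

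Esrrb, an orphan nuclear receptor that sustains the naive state, was at 4.13, 4.40 and 4.12 in controls and at 4.65, 4.24 and 5.04 in HOXB4 cells. HOXB4 3 and 1 were the highest arrays, and HOXB4 2 lay below control 2. All these values were below the median gene, so the difference of 0.43 (SE 0.21; limma adjusted p = 0.622) was measured near background. It was 0.23 without HOXB4 3.

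Klf4, a Krüppel-like factor that is also induced by stress, was at 6.97, 7.04 and 8.38 in controls and at 8.63, 7.44 and 7.69 in HOXB4 cells. HOXB4 1 and control 3 were high, an order shared with no other of the 10 genes. The difference was 0.46 (SE 0.45; limma adjusted p = 0.782) and shrank to 0.11 without HOXB4 1.

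Tdgf1, which encodes Cripto, the cell surface co-receptor of Nodal, varied most. It was at 10.98, 8.23 and 11.64 in controls and at 8.95, 13.02 and 10.30 in HOXB4 cells, a 27.7-fold span between control 2 and HOXB4 2. Both groups held a low and a high array, and 2.20% of the sum of squares over the 6 arrays lay between the groups, against 17.7% for the median gene. The difference was 0.48 (SE 1.22), with an interval of -2.44 to 3.39, and it turned to -0.55 without control 2 and to -0.66 without HOXB4 2. The feature of the processed copy Tdgf1-ps1 gave 10.87, 7.66 and 11.68 in controls and 8.24, 13.28 and 10.13 in HOXB4 cells, the same array order. Signal of the gene and its copy may therefore be shared, and the sources used here do not say whether the features share probes.

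Lin28a, the RNA-binding protein that holds back let-7, was at 7.15, 7.24 and 7.54 in controls and at 6.94, 7.48 and 7.05 in HOXB4 cells. It was the 1 factor with a lower HOXB4 mean, by -0.16 (SE 0.17; 95% interval -0.57 to 0.26; limma adjusted p = 0.800). The difference ran from -0.32 without HOXB4 2 to -0.04 without control 3. Its range of 0.605 over the 6 arrays was the narrowest of the 10.

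Utf1, a chromatin-bound factor of embryonic stem cells and epiblast, was at 5.05, 4.99 and 5.15 in controls and at 5.27, 5.63 and 6.48 in HOXB4 cells. The controls lay within 0.152 of each other, and every HOXB4 array lay above them, HOXB4 3 by far the most. The difference was 0.73 (SE 0.29; 95% interval 0.04 to 1.42), with an unadjusted p of 0.0400 and an adjusted p of 0.605 by limma. It was 0.39 without HOXB4 3, the 1 array in which Utf1 was above the highest background feature.

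Dppa4, a SAP-domain protein of pluripotent and germ cells, had the largest difference of the 10. It was at 7.15, 9.45 and 7.82 in controls and at 10.61, 8.18 and 10.86 in HOXB4 cells. HOXB4 1 and 3 lay above every control, but HOXB4 2 lay below control 2. The means were 8.14 ± 1.18 and 9.89 ± 1.48 (SD, n = 3 each), a difference of 1.74 (SE 0.84) or 3.35-fold, with an interval of -0.27 to 3.75 and a limma adjusted p of 0.622. It was 1.25 without control 1 or HOXB4 3 and 2.60 without HOXB4 2, where the adjusted p was 0.179.

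**Figure D2:**
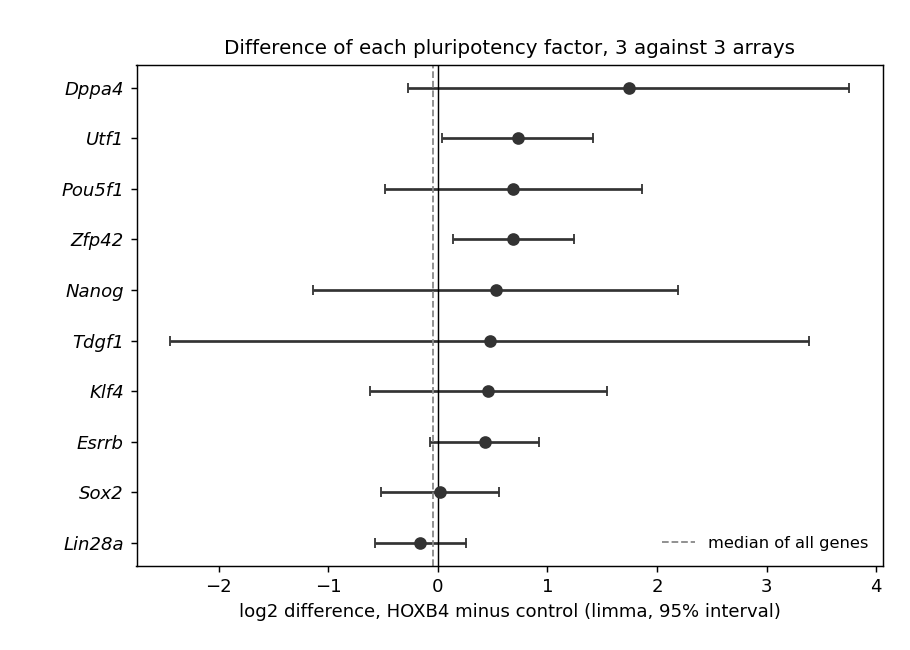
Points are the log2 differences, HOXB4 minus control, of the 10 genes on the horizontal axis, with limma's 95% intervals from 3 against 3 arrays; the dashed line is the median of all genes at -0.04. The unadjusted intervals of Zfp42 (0.14 to 1.24) and Utf1 (0.04 to 1.42) lie above 0, and the other 8 include it.

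The 10 genes did not move as one block across the arrays. Tdgf1, Nanog and Pou5f1 were lowest in control 2, next lowest in HOXB4 1 and highest in HOXB4 2, all 3 genes alike. Dppa4 and Esrrb had another order, with HOXB4 3, HOXB4 1 and control 2 as the 3 highest arrays for both. Zfp42 too was highest in HOXB4 3 and HOXB4 1. Control 2 and HOXB4 1 were thus low in the Nanog and Tdgf1 group and high in Dppa4, whichever group they belonged to.

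Markers of the sorted fate and of the streak varied over the same arrays. The 11 measured vascular and blood markers averaged 11.25 in control 2, 11.83 in HOXB4 1 and 11.14 in HOXB4 3, and 9.84, 9.94 and 9.68 in control 1, control 3 and HOXB4 2. All 11 were above the highest background feature in every array, as were 11730 of all 30702 genes. Kdr and Lmo2, both of this list, varied little, with ranges of 0.651 and 0.276 over the arrays. Cdh5, the endothelial cadherin, stood at 14.05 in control 2, 15.11 in HOXB4 1 and 12.91 in HOXB4 3. It was at 12.31 in control 1, 11.83 in control 3 and 11.29 in HOXB4 2. Etv2, an early haemangioblast factor on the same list, went the other way: it was lowest in HOXB4 1 (9.58) and HOXB4 3 (10.16), and stood at 12.06 in HOXB4 2 and 11.75 to 12.33 in controls. The 6 measured primitive streak markers averaged 8.76, 8.85 and 9.15 in controls and 7.58, 9.66 and 7.77 in HOXB4 cells. Mixl1, a homeobox gene of the streak, was highest in HOXB4 2, at 15.62, as Tdgf1 and Nanog were. At the low end they differed: Mixl1 was lowest in HOXB4 1 (11.86) and HOXB4 3 (11.95), with control 2 at 14.21. Tdgf1 and Nanog were lowest in control 2. The feature shared by Pdgfra, the marker sorted against, and Mir7025 was also highest in HOXB4 2, at 7.15, against 5.95 to 6.89 in the other 5 arrays. The part of these markers in the values of the 10 factors was not tested.

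**Figure D3:**
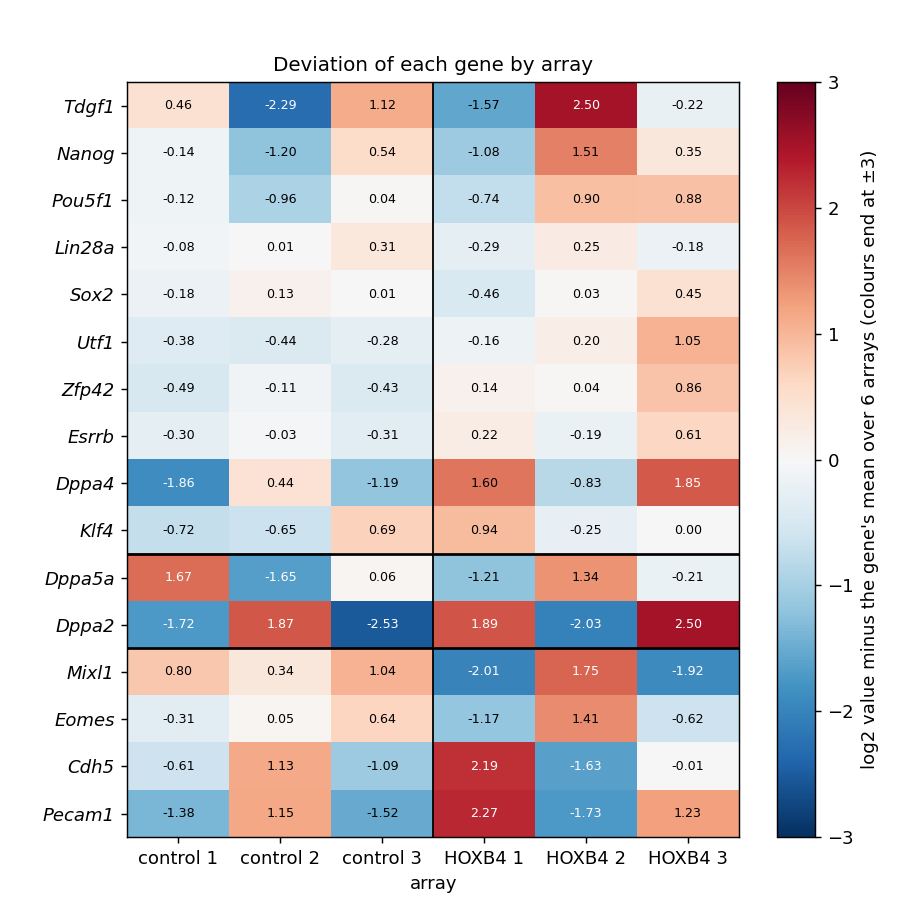
Each cell gives a gene's log2 value in an array (columns) minus that gene's mean over the 6 arrays, for the 10 factors, for Dppa5a and Dppa2, and for 2 streak and 2 endothelial markers chosen for display after their values were seen. Tdgf1 is at -2.29 in control 2 and 2.50 in HOXB4 2, whereas Dppa2 is at 1.87 and -2.03 in those arrays.

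The genes most like the factors were found by Pearson correlation over the 6 arrays among 4032 genes above the median level and with an SD of at least 0.3. With so many candidates and 6 arrays, high values are common, so r is given as a description. Closest to Pou5f1 were Gm21411, Cdh6, Zfp600, Zfp534 and 4930555G01Rik (r = 0.979 to 0.988). Zfp600, Zfp534 and Gm21411 belong to zinc finger or predicted gene families with near copies, so their features may share signal. Closest to the mean deviation of the 10 genes were Gm23138, Atp1b1, Platr22, Chchd10 and Esrp1 (r = 0.973 to 0.986). Esrp1, an epithelial splicing factor, was at 5.70, 5.33 and 6.09 in controls and at 6.21, 6.82 and 6.92 in HOXB4 cells. Lists for the other 9 genes were added after the values were seen, and not all are given. Those for Zfp42 held Gm23767, Lhx1, 2410141K09Rik, Zfp640 and Gm10324 (r = 0.991 to 0.996). Those for Utf1 held Vmn2r-ps16, Gm22131, Gm23422, Gm24449 and Mir574 (r = 0.958 to 0.962). For Tdgf1 they gave Tdgf1-ps1, Hsp25-ps1, Tagln, Ap1m2 and St14 (r = 0.985 to 0.999). For Dppa4 they gave Nqo1, Trap1a, Sdr39u1, Gm3555 and Pld3 (r = 0.996 to 1.00). For Klf4 they gave Ddit3, Ccnl1, Nr1d2, Map3k2 and Crebrf (r = 0.964 to 0.989). Ddit3, a stress-induced factor, was at 7.18, 7.54 and 8.70 in controls and 8.95, 7.82 and 7.95 in HOXB4 cells. A part of stress in the values of Klf4 was not tested.

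The wider naive network was measured through 21 of 22 listed genes, and 0 passed the test. Differences were above 0 for 13 and below 0 for 8, with a median of 0.05, where 40.0% of all genes were above 0. In every array 10 of the 21 were under the highest background feature and 8 were above it. Over all 30702 genes these counts were 16864 and 11730. The 10 include Dppa3 (3.42 to 3.69), Tcl1 (3.63 to 3.85) and Fgf4 (3.82 to 4.27), which are active in naive stem cells. Among the 8 are Klf5 (7.51 to 9.53) and Gbx2 (6.02 to 6.90). L1td1, an RNA-binding protein of stem cells, was at 6.21, 5.67 and 6.17 in controls and at 6.21, 7.17 and 7.43 in HOXB4 cells, a difference of 0.92 (SE 0.32). Stat3, the transducer of LIF signals, differed by 0.55 (SE 0.29) and Zfp281 by -0.35 (SE 0.19). Tbx3 and Sall4, which also act in mesoderm, differed by -1.07 (SE 0.45) and -0.77 (SE 0.39), with HOXB4 2 among the controls for both. With 1 array left out, Tbx3 ran from -1.61 (without HOXB4 2) to -0.62 (without HOXB4 3). Sall4 ran from -1.23 (without HOXB4 2) to -0.47 (without HOXB4 1).

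Dppa2 is the chromosomal neighbour and binding partner of Dppa4. It was at 9.13, 12.71 and 8.32 in controls and at 12.74, 8.82 and 13.35 in HOXB4 cells. Control 2, HOXB4 1 and HOXB4 3 were the high arrays, as for Dppa4, and the other 3 arrays lay far below them. The difference between the groups, 1.59 (SE 1.51), was of the size of its own error. It was 0.72 without control 3 and 0.73 without HOXB4 3, and 2.91 without control 2 and 2.99 without HOXB4 2. Dppa5a, a KH-domain gene with a similar name but another family, was at 10.75, 7.43 and 9.14 in controls and at 7.87, 10.42 and 8.87 in HOXB4 cells, so it was lowest where Dppa2 was high. Its difference was -0.05 (SE 0.94).

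Of 12 primed epiblast genes, 0 passed, and 8 were above 0 and 4 below, with a median of 0.12. The share above 0 over all genes was 40.0%. Fgf15, a secreted growth factor, was at 11.82, 10.40 and 10.44 in controls and at 6.85, 9.21 and 7.12 in HOXB4 cells. Every HOXB4 array stood under the lowest control, as for 10.2% of all genes, and the difference was -3.16 (SE 0.68; limma unadjusted p = 0.00255, adjusted p = 0.605). Fgf5, the classical epiblast marker, pointed the other way at 0.67 (SE 0.35), with 7.22 and 7.10 in HOXB4 2 and 3 above every control. The de novo methyltransferase gene Dnmt3b differed by -0.28 (SE 0.31) and Zic2 by 0.03 (SE 0.36). Both signs rested on single arrays: Dnmt3b turned to 0.03 without HOXB4 1, and Zic2 to -0.24 without control 2 and -0.29 without HOXB4 2. Lefty1 and Lefty2, antagonists of Nodal, were under the highest background feature in every array, with differences of 0.22 and 0.47 (SE 0.15 and 0.22).

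Tdgf1 works with Nodal and GDF ligands, activin receptors, Smad proteins and Foxh1. Of the 13 measured genes of this pathway 0 passed, and 5 were above 0 and 8 below, with a median of -0.07. Over all genes 40.0% were above 0. Cfc1, the paralogue of Tdgf1, was at 7.10, 6.56 and 7.26 in controls and at 4.99, 6.81 and 5.16 in HOXB4 cells, a difference of -1.32 (SE 0.48). It was low in HOXB4 1 and 3, where it was not above the highest background feature, while Tdgf1 was low in HOXB4 1 and control 2. Foxh1, the DNA-binding partner of Smad2, was at 12.04, 10.83 and 11.64 in controls and at 9.39, 11.54 and 9.58 in HOXB4 cells, a difference of -1.33 (SE 0.60). The receptor genes Acvr2a and Acvr2b differed by -0.43 and -0.27 (SE 0.21 and 0.11). For Acvr2b the groups did not overlap, as for 10.2% of all genes with HOXB4 lower, though its difference was -0.08 with the mean of its features. Smad2 and Smad4 differed by -0.04 and -0.10 (SE 0.08 and 0.11), and both signs turned with cyclic loess (0.04 and 0.01). Nodal itself was at 5.47, 5.67 and 6.19 in controls and at 5.77, 6.41 and 6.05 in HOXB4 cells. It was above the highest background feature in 3 arrays.

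The Lin28 and let-7 list, with 10 of 12 genes measured, also had 0 genes that passed, 5 above 0 and 5 below. Over all genes 40.0% were above 0. All 10 of the list were above the highest background feature in every array, as were 11730 of all 30702 genes. The paralogue Lin28b stood at 9.20 to 9.48 in controls and 9.07 to 9.56 in HOXB4 cells. Hmga2 and Igf2bp3, known let-7 targets, differed by 0.07 and 0.23 (SE 0.21 and 0.24), and Hmga2 turned to -0.06 without control 1, -0.15 without HOXB4 1 and -0.01 with array weights. The ubiquitin ligase gene Trim71, another target, differed by -0.28 (SE 0.19) and the microRNA processing gene Dicer1 by -0.23 (SE 0.13). Mycn was higher without overlap at 0.28 (SE 0.12), as were 3.24% of all genes. Arid3a was lower without overlap at -0.19 (SE 0.09), as were 10.2% of all genes.

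Of 10 genes that silence or oppose the pluripotency factors, 0 passed, and 3 were above 0 and 7 below, with a median of -0.04. Over all genes 40.0% were above 0, and the median was the same. Cdx2, which represses Pou5f1 in trophectoderm, was at 9.89, 9.32 and 8.91 in controls and at 6.91, 8.73 and 7.35 in HOXB4 cells. Its groups did not overlap, with HOXB4 lower, as for 10.2% of all genes. The difference was -1.71 (SE 0.48; limma unadjusted p = 0.00989, adjusted p = 0.605). Gata6, an endoderm and mesoderm factor that opposes Nanog, differed by -0.67 (SE 0.34). Tcf7l1, a repressor of Nanog, and the methyl-DNA binding gene Mbd2 differed by 0.39 and 0.32 (SE 0.17 and 0.15). Mbd3 differed by -0.22 (SE 0.11), also without overlap between the groups. The methyltransferase genes Dnmt3a and Ehmt2 differed by 0.25 and -0.05 (SE 0.26 and 0.12), but Dnmt3a was 0.02 without HOXB4 3 and Ehmt2 turned to 0.04 without control 2.

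**Figure D4:**
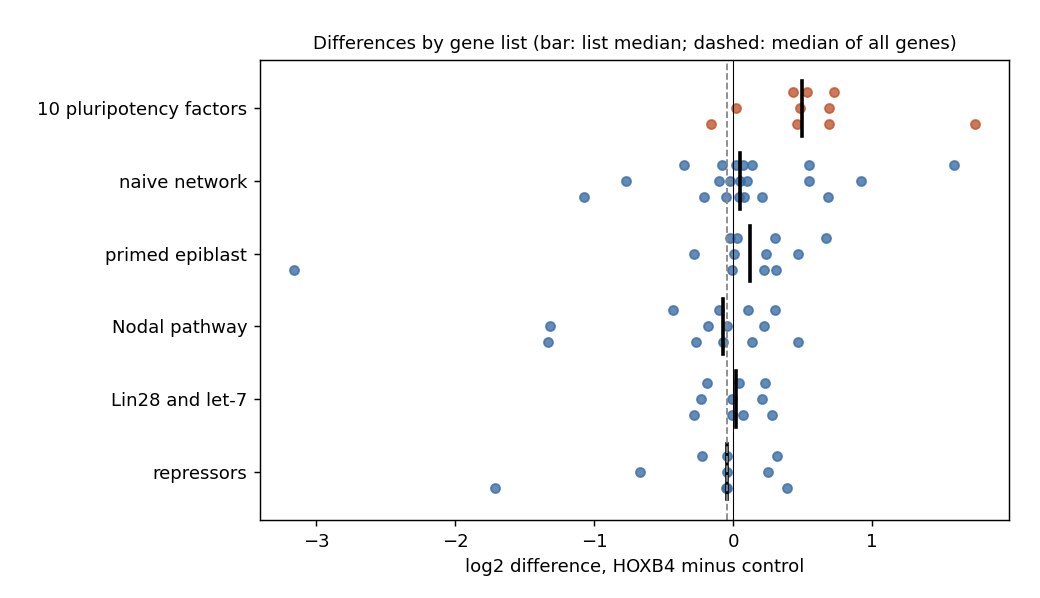
Each point is the log2 difference, HOXB4 minus control, of 1 gene in its list, and bars are list medians; the vertical scatter within a row carries no value. The 10 factors have a median of 0.50 and the 5 related lists medians of -0.07 to 0.12, with Fgf15 (-3.16) and Cdx2 (-1.71) as the lowest points of their lists.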

How the data were processed

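Total RNA (100 ng per sample, labelled with the Affymetrix WT PLUS kit) from 6 sorted samples was hybridised to 1 array each. The deposited values are log2 summaries made by the authors with Affymetrix Expression Console and RMA, per the submitters' processing notes. RMA corrects background, equalises arrays by quantiles and summarises probes, so a shift of most genes would be partly removed. The sources used here give no version, settings or build.

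Of 65956 features that are no controls, 31258 named 1 gene after older symbols were updated through RefSeq GRCm38.p6, 1492 several and 33206 none listed. For each of 30702 genes the brightest such feature was used. The difference, HOXB4 minus control, came from limma (version 3.58.1 under R 4.3.3, two-sided) with no replicate block. It was tried on simulated data with noise drawn independently for each gene and array. That trial does not show how limma performs where genes vary together across arrays. Titles gave the groups. Alternatives were the block, other priors, weights, scalings, filters and features, and each array left out. From each related list, the 4 genes with the smallest p and the 4 with the highest mean are named, with others chosen after their values were seen. The members and lists were chosen with earlier results of these data known. Sequences are RefSeq's. Other steps ran in Python 3.11.15 with numpy 2.4.6, pandas 2.3.3 and, for plots, matplotlib 3.10.9.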

Additional observations from a re-analysis of the deposited data

How the results depend on the processing

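No setting called any of the 10 factors: limma counted 0 of them in each of the 16 fits, with 2 at an unadjusted p below 0.05 in the fit reported and 0 to 4 in the others. Over all genes the count was 0 in every fit but one; when 1 array was left out it ran from 0 to 46, and the 46 came without HOXB4 2. With the replicate number as a block it was 0 (1294 genes at an unadjusted p below 0.05, against 2513), and without moderation 0 (1974 genes). Same-numbered arrays deviated from their group means in opposite ways (r = -0.402, -0.594 and -0.347 for numbers 1 to 3). The labels do not say whether a number marks a shared experiment. These correlations cannot decide it, because deviations from the mean of so few arrays depend on each other. With 1 array left out, Nanog ran from -0.10 to 1.20, Sox2 from -0.20 to 0.25 and Tdgf1 from -0.66 to 1.38, and these were the 3 factors whose sign turned; the cause was not tested. In the other settings every factor kept its direction. Factors above 0 numbered 7 to 9. Cyclic loess moved the median of all genes from -0.04 to 0.01. The filter on dim features removed Esrrb. Of 31 listed genes outside the 10 factors whose settings were compared, 26 moved by over 1.5 times with at least 1 array left out, and Fgf15, Cdx2, Cfc1, L1td1 and Acvr2b did not. The sign turned in at least 1 setting for 6 of the 31: Dnmt3b, Zic2, Hmga2, Ehmt2, Smad2 and Smad4. Signal near background limits Esrrb, Sox2 and Utf1.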

Other observations

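Germ cell genes, which share several factors with pluripotent cells, gave mixed values. Of 10 such genes 6 were under the highest background feature in every array, as were 16864 of all 30702 genes. Among the 6 were Dazl (4.09 to 4.27) and Nanos3 (3.48 to 3.97). The 3 above it in every array were Ddx4, Kit and Sycp3, with Kit at 7.39 to 9.40. Ddx4, a germ cell helicase, was at 7.38, 7.96 and 7.13 in controls and at 7.76, 7.47 and 8.38 in HOXB4 cells. Mael, a gene of the piRNA pathway, was at 4.56, 5.81 and 4.37 in controls and at 5.43, 4.83 and 6.33 in HOXB4 cells, so HOXB4 3, control 2 and HOXB4 1 were its 3 highest arrays, as they were for Dppa4 and Dppa2. Mael was above the highest background feature in HOXB4 3 alone, so its order was measured near background. Sycp3, a component of the synaptonemal complex, was at 9.31, 7.62 and 8.90 in controls and at 7.38, 8.97 and 8.19 in HOXB4 cells, with its 2 lowest arrays, HOXB4 1 and control 2, the same as those of Tdgf1 and Nanog. None of the 10 passed the test, and these genes were described after their values were seen.

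The array also lists copies of Pou5f1. Pou5f1-rs4 stood at 5.18, 4.91 and 5.23 in controls and at 5.17, 5.61 and 5.70 in HOXB4 cells, with HOXB4 2 and 3 highest and control 2 lowest as for Pou5f1, all under the highest background feature. Pou5f1-rs8 went the other way, at 4.66, 4.40 and 4.63 in controls and at 4.25, 4.32 and 4.50 in HOXB4 cells, a difference of -0.20 (SE 0.11), also under the highest background feature. Tdgf1-ps2 was highest in HOXB4 2, at 7.86, and lowest in control 2, at 6.47.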
